A study of Mus musculus with 7 samples.

Results

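The lysyl oxidase family comprises 5 genes in the mouse, Lox, Loxl1, Loxl2, Loxl3 and Loxl4, and its members were taken by name from the 55450 genes of the deposited count table. All 5 were found there and all 5 were among the 17959 genes tested. Expression was measured by bulk RNA sequencing of polyA RNA from the dorsal skin of male wild type C57BL/6 mice aged 24 months. The control group held 4 mice treated with DMSO alone (mice 480, 481, 482 and 483), and the treated group held 3 mice that received 5 μM ABT-263 in DMSO (mice 476, 477 and 478). ABT-263 (navitoclax) blocks BCL-2 family members that protect cells from apoptosis and is used as a senolytic, a drug that kills senescent cells. In both groups the hair was clipped and removed with a depilatory lotion, the skin was cleaned with ethanol, and RNA was taken after 5 days of treatment under a semi-occlusive dressing. Every control therefore carries the depilation, the vehicle and the dressing as well. Each library came from homogenized skin of 1 mouse, as its number in the sample title is read here, and the labels name no batch.

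Lysyl oxidases are secreted copper enzymes that oxidize lysine side chains of collagen and elastin to reactive aldehydes. These aldehydes then condense with neighbouring chains into the covalent cross-links that make collagen fibrils strong and elastic fibres resilient. The enzymes need copper, delivered in the secretory pathway, and a quinone cofactor that each enzyme makes from its own residues. In skin they are made largely by fibroblasts, and LOX and LOXL1 are the members tied most closely to elastin, whereas LOXL2 also acts on the collagen IV of basement membranes. LOX and LOXL1 are secreted as precursors and are cut by BMP1 and related proteases.

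The libraries held 20344364 to 26824123 counted pairs after DMSO and 27325963 to 43562330 after ABT-263, so every treated library was the larger. Levels are given as CPM, counts scaled to the TMM-normalised library total, and the treatments were compared by edgeR's quasi-likelihood test with Benjamini-Hochberg adjustment over all genes tested, called here at an adjusted p under 0.05. At that threshold 24.2% of all genes tested differed, 12.4% higher and 11.7% lower after ABT-263, with a median log2 fold change (log2FC, positive where ABT-263 is higher) of 0.00 over all genes. All interfollicular keratinocyte markers listed were detected, with a summed level of 25968 to 67126 CPM after DMSO and 19193 to 58579 CPM after ABT-263. Skeletal muscle markers were also abundant, at 30832 to 64381 CPM after DMSO and 20119 to 29643 CPM after ABT-263, so the samples hold skeletal muscle transcripts as well as those of keratinocytes. DMSO-treated mouse 481 stood apart in hair follicle transcripts, with 2811 CPM summed over the list against 24.5 to 27.4 CPM in the other controls and 14.3 to 561.6 CPM after ABT-263.

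What the family shares at the sequence level is the catalytic domain, which has a copper-binding stretch that holds 4 histidines. The coding strand of this stretch is shown for Loxl1 to Loxl4, 5′ to 3′. It gives a view of how alike the members are and of how they can still be told apart by sequencing. The histidine codons are in capitals, and each stretch of 33 bases runs across the junction of 2 coding exons.
Loxl1: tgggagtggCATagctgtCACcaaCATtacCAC
Loxl2: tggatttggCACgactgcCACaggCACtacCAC
Loxl3: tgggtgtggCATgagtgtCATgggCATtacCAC
Loxl4: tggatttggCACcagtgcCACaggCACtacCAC
These sequences were read from GENCODE M21 transcripts on GRCm38 (mm10). The stretch of Loxl1 spans chr9:58293720-58294381 on the minus strand and begins in exon 3 of 7, and that of Loxl2 spans chr14:69682316-69689037 on the plus strand and begins in exon 10 of 14. The stretch of Loxl3 spans chr6:83049995-83050125 on the plus strand and begins in exon 10 of 14, and that of Loxl4 spans chr19:42598807-42599899 on the minus strand and begins in exon 11 of 15. Each stretch was located by a search pattern that fixes the 4 histidines, so their shared places were set in advance. The pattern also fixes tryptophan, cysteine and tyrosine residues, so part of the likeness in bases follows from it. Loxl2 and Loxl4 had 31 of 33 bases in common, Loxl1 and Loxl4 only 21, and Lox, which is not printed, shared 32 of 33 with Loxl1 and 22 with Loxl4. Across whole annotated transcripts the longest exact run shared by any pair of members was 32 bases (Lox and Loxl1), and the shortest such maximum was 11 bases (Lox and Loxl4). The counts used uniquely aligned read pairs.

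In this annotation Lox lies on chromosome 18 from 52516067 to 52529867 (minus strand) and Loxl1 on chromosome 9 from 58287738 to 58313186 (minus strand), each with 7 exons in its longest coding transcript. Loxl2 lies on chromosome 14 from 69609068 to 69695834 (plus strand, 14 exons), Loxl3 on chromosome 6 from 83034173 to 83052562 (plus strand, 14 exons), and Loxl4 on chromosome 19 from 42593982 to 42612813 (minus strand, 15 exons). For Loxl3, 11.6% of the exon bases also lie in exons of Htra2 on the opposite strand, and for Loxl2 5.57% lie in exons of Gm27177 on the opposite strand. Pairs were counted on the same strand, which separates such genes, and no other member had more than 0.63% of its exon bases in another gene.

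Levels of different genes were compared per length, as CPM per kilobase of annotated exon. After DMSO, Loxl1 was the most abundant lysyl oxidase transcript at 22.3 ± 8.33 CPM per kilobase (SD, n = 4). Loxl2 followed at 9.79 ± 3.83 and Lox at 7.51 ± 2.35 CPM per kilobase. Loxl3 reached 1.43 ± 0.58 and Loxl4 0.30 ± 0.11 CPM per kilobase. The ranges of Loxl1 (10.1 to 28.8) and Loxl2 (4.85 to 13.7) overlapped among the control mice, as did those of Loxl2 and Lox (4.44 to 9.66), although every control mouse on its own had the order Loxl1, Loxl2, Lox, Loxl3, Loxl4. After ABT-263, Loxl1 was at 41.5 ± 8.70, Lox at 23.3 ± 7.04, Loxl2 at 13.2 ± 1.31, Loxl3 at 4.66 ± 3.41 and Loxl4 at 1.03 ± 0.44 CPM per kilobase (SD, n = 3). In each of the 3 treated mice Lox was above Loxl2, and their ranges did not overlap (16.6 to 30.6 for Lox and 11.7 to 14.1 for Loxl2). The same orders were found with the length of the longest coding transcript, under which the control level of Loxl4 was 0.48 CPM per kilobase.

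**Figure D1:**
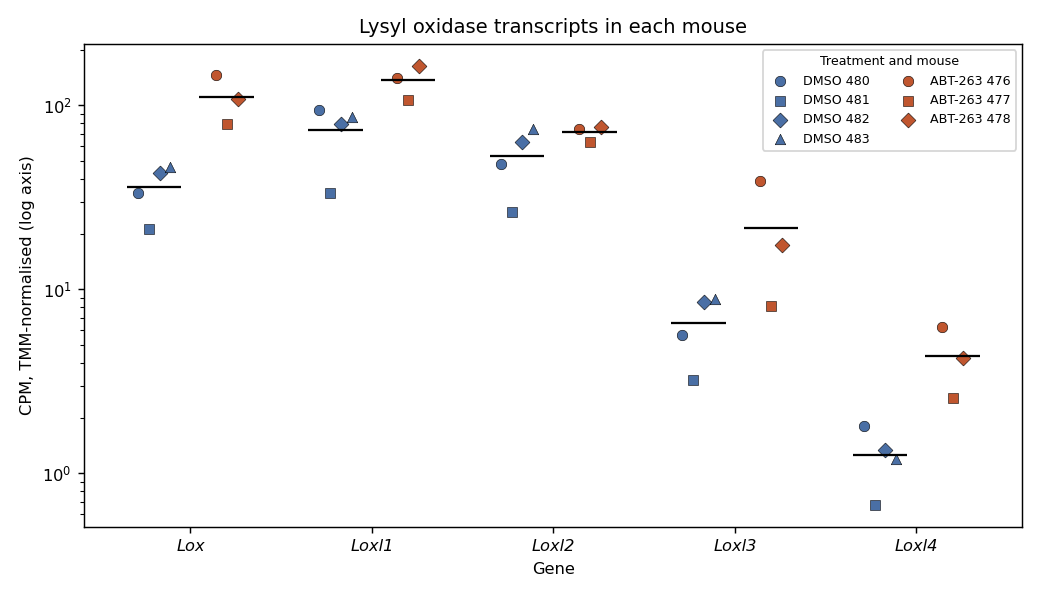
TMM-normalised CPM (log axis) of the 5 lysyl oxidase genes in each mouse, with blue symbols for 4 DMSO-treated and orange symbols for 3 ABT-263-treated mice and a horizontal bar for each group mean. The groups do not overlap for Lox, Loxl1 and Loxl4, and mouse 481 is the lowest control for every gene.

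Lox and Loxl4 rose after ABT-263 and no member fell, so that 2 of 5 genes were called against a background of 12.4% of all genes called higher. All 5 log2FC values were positive, between 0.43 and 1.80 with a median of 1.64. The groups did not overlap for 3 of the 5 genes, in each case with ABT-263 higher, where 18.7% of all genes tested had such a separation with ABT-263 higher and 37.1% had one in either direction. Without mouse 482, 483, 476 or 478 in turn, Lox was the only member called, and the share of all genes called in either direction was between 9.39% and 12%. The members were chosen with results of these data known, and these counts describe them without a test over the family.

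Lox encodes the founding enzyme of the family, which acts on fibrillar collagen and elastin. In the controls it was at 33.2 CPM in mouse 480, 21.2 in mouse 481, 42.9 in mouse 482 and 46.2 in mouse 483. After ABT-263 it was at 146 CPM in mouse 476, 79.3 in mouse 477 and 108.7 in mouse 478. The lowest treated mouse lay above the highest control. Lox rose 3.11-fold, with log2FC 1.64 (standard error, SE, 0.30, edgeR adjusted p = 0.0111). The call held whichever mouse was left out, with a log2FC between 1.40 without mouse 476 and 1.86 without mouse 477. After removal of length and GC trends the log2FC was 1.46 (edgeR adjusted p = 0.0137). These libraries rest on 504 to 1124 Lox counts per control and 3147 to 5060 per treated mouse.

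Loxl1 encodes the enzyme needed for the renewal of elastic fibres in adult tissue. It was at 94.8, 33.5, 78.9 and 86.7 CPM in control mice 480 to 483 and at 140.1, 107 and 163.8 CPM in treated mice 476 to 478. The groups did not overlap, but mouse 481 lay far below the other controls. The log2FC of 0.90 (SE 0.33) did not pass the threshold (edgeR adjusted p = 0.0845), nor did it under any alternative fit. Without mouse 481 it was 0.65 (edgeR adjusted p = 0.0541).

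Loxl2 encodes an enzyme with scavenger receptor domains that cross-links collagen IV as well as fibrillar collagen. It was at 48.3, 26.2, 63.0 and 74.2 CPM in control mice 480 to 483 and at 74.7, 63.3 and 76.3 CPM in treated mice 476 to 478. The groups overlapped, since control mouse 483 lay above treated mouse 477. Its log2FC was the smallest of the family, at 0.43 (SE 0.31, edgeR adjusted p = 0.332), and 0.20 without mouse 481.

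Loxl3, which encodes an enzyme important for cartilage and palate development, was expressed at a lower level and varied most. The controls held 5.65, 3.20, 8.57 and 8.91 CPM in mice 480 to 483, and the treated mice 38.8, 8.17 and 17.4 CPM in mice 476 to 478. Mouse 477 lay within the range of the controls. The log2FC of 1.70 (SE 0.54, edgeR adjusted p = 0.0557) did not pass. It was 0.97 (edgeR adjusted p = 0.191) without mouse 476 and 2.13 (adjusted p = 0.0249) without mouse 477. The DESeq2 Wald test placed Loxl3 past the threshold (adjusted p = 0.00930), as did edgeR on genes with at least 10 counts in every library (adjusted p = 0.0498).

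Loxl4, which like Loxl2 and Loxl3 encodes a protein with scavenger receptor domains, was the least abundant member, resting on 16 to 44 counts per control and 102 to 198 per treated mouse. It was at 1.80, 0.67, 1.33 and 1.19 CPM in control mice 480 to 483 and at 6.26, 2.57 and 4.25 CPM in treated mice 476 to 478. The groups did not overlap. Loxl4 rose 3.47-fold, with log2FC 1.80 (SE 0.41, edgeR adjusted p = 0.0198). With each mouse left out the log2FC stayed between 1.45 and 2.09, and the call was lost without mouse 476 (1.45, adjusted p = 0.0620), mouse 478 (1.82, adjusted p = 0.0574), mouse 482 (1.82, adjusted p = 0.0547) or mouse 483 (1.77, edgeR adjusted p = 0.0548).

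**Figure D2:**
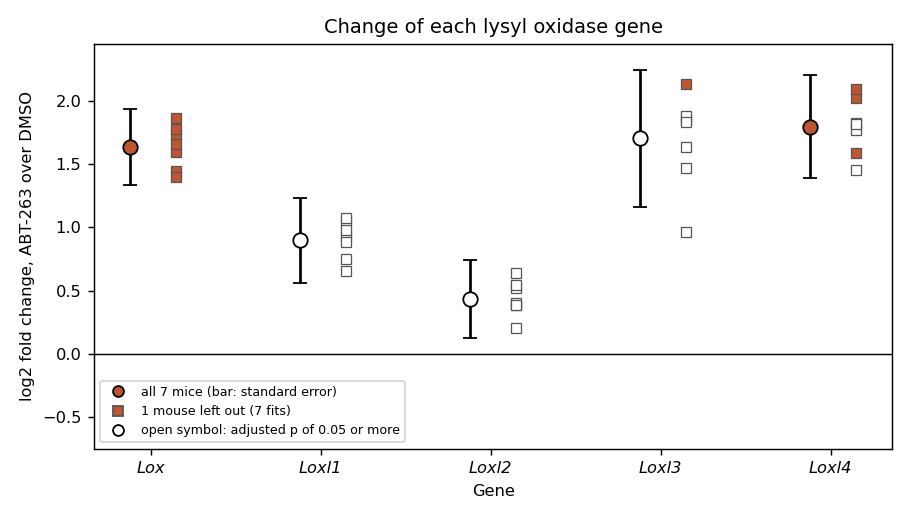
Log2FC (ABT-263 over DMSO) of each lysyl oxidase gene from edgeR, with all 7 mice (circle, bar for the standard error) and with each mouse left out (squares), filled where the adjusted p is under 0.05. Lox is filled in all fits, whereas Loxl1 and Loxl2 are open in all of them.

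Mouse 481 was the lowest control for all 5 genes, and mouse 477 the lowest treated mouse for all 5. Summed per length, the family reached 20.3 CPM per kilobase in mouse 481 against 46.3 to 51.9 in the other controls, and 63.0 in mouse 477 against 91.3 and 96.9 in the other treated mice. Mouse 481 also had the lowest summed fibroblast markers among the controls, 944 CPM against 1352 to 1478 CPM, and mouse 477 the lowest among the treated mice, 1435 CPM against 2251 and 2264 CPM. This was not particular to fibroblasts. Both mice were also the lowest of their groups in the summed endothelial, macrophage, neutrophil and adipocyte markers. That did not hold for both mice in the summed keratinocyte, hair follicle, skeletal muscle or T cell markers. The smooth muscle and pericyte sum did not follow it either, but that sum is mainly Des, at 3441 CPM in mouse 480 and 3977 CPM in mouse 481. Among the other genes of that list, both mice were the lowest of their groups for Myh11 and Pdgfrb, but not for Acta2, Tagln, Cnn1 or Rgs5. The part of the content of fibroblasts or other cells in the levels of the lysyl oxidases was not tested. In bulk tissue, fewer cells of a type and less RNA per cell cannot be told apart.

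Ratios of 2 members within a library do not depend on the scaling between libraries, and they were used to ask whether members changed by different amounts. The log2 ratio of Lox to Loxl2 counts was -0.54, -0.30, -0.55 and -0.68 in control mice 480 to 483 and 0.97, 0.33 and 0.51 in treated mice 476 to 478. Every control held fewer Lox than Loxl2 counts and every treated mouse held more. The group means differed by 1.12 on the log2 scale (two-sided p = 0.0286 by exact permutation, as small as 4 mice against 3 allow). For Loxl1 to Loxl4 the difference was -0.79, again without overlap (exact permutation test, two-sided, p = 0.0286). After adjustment over the 10 pairs of members neither passed (both 0.114 by the exact permutation test). The ratios of Lox to Loxl1 (difference 0.67) and of Loxl2 to Loxl4 (difference -1.24) did not overlap between the groups either (exact permutation test, p = 0.0571 for both). Lox to Loxl3 (0.12) and Lox to Loxl4 (-0.12) had the smallest differences (exact permutation test, p = 0.743 for both), although a ratio with Loxl3 varied widely after ABT-263, with an SD of 0.68 for Lox to Loxl3.

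As a share of the summed per-length level of the family, Lox made up 18.7% ± 2.84 after DMSO (SD, n = 4) and 27.6% ± 3.55 after ABT-263 (SD, n = 3). No control was above 21.9% and no treated mouse below 24.9%. The share of Loxl2 was 23.6% ± 3.08 after DMSO and 16.1% ± 2.22 after ABT-263, between 19.3% and 26.4% in the controls and between 14.3% and 18.6% in the treated mice. Loxl1 held 53.5% ± 5.77 and 49.9% ± 5.41 of the pool, with overlapping ranges. These shares sum to 1 pool, so a larger share of one member lowers those of the others. Loxl3 reached 8.69% of the pool in mouse 476 and at most 4.15% in any other mouse.

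**Figure D3:**
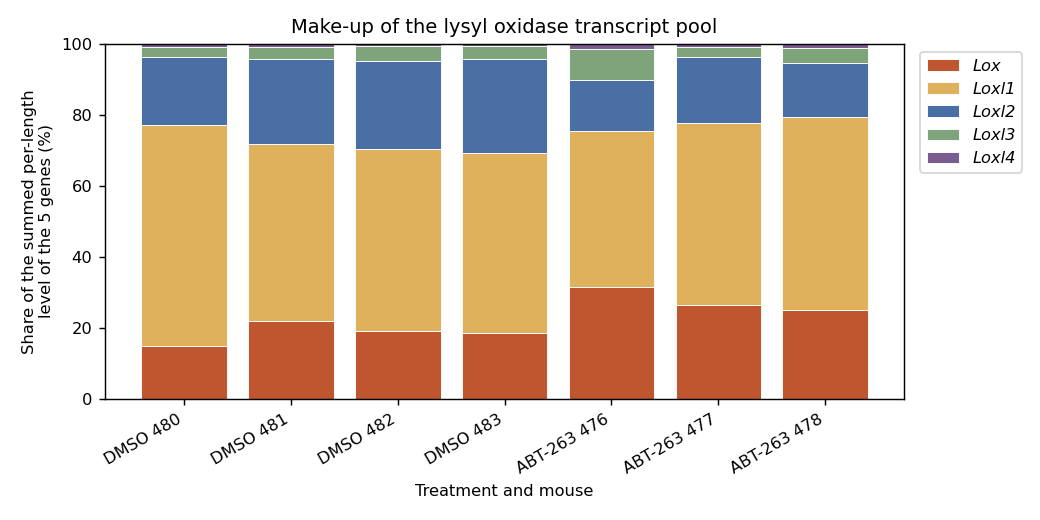
Share (%) of each gene in the summed per-length level of the 5 lysyl oxidase genes, 1 stacked bar per mouse. Loxl1 is the largest part in every mouse, and the Lox part is at most 21.9% in the controls and at least 24.9% after ABT-263.

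Lox was next set against transcripts of its substrates and of fibroblasts, within each library and without a test. The log2 ratio of Lox to Eln, the elastin gene, was -2.58, -1.68, -2.82 and -2.41 in control mice 480 to 483 and 0.67, -1.60 and -1.65 in treated mice 476 to 478. The groups did not overlap, by a narrow margin between control mouse 481 and treated mice 477 and 478. Relative to Col1a1, the difference between group means was 1.18, and relative to Col3a1 it was -1.21, both without overlap. For Col1a1 the margin was narrow, with -5.31 in control mouse 482 and -5.18 in treated mouse 477. Lox transcripts were therefore higher relative to Eln and Col1a1 after ABT-263, and lower relative to Col3a1, whose own transcripts went from 489 ± 122 CPM in the controls to 3724 ± 1620.3 CPM in the treated mice (SD). Relative to the fibroblast marker Pdgfra the difference was 0.06, with overlapping groups, and relative to the fibroblast marker Dpt it was 0.97, without overlap. For Dpt the margin was narrow too, with -2.28 in control mouse 483 and -2.19 in treated mouse 478, whereas treated mouse 476 was at -0.69. Of the 2 fibroblast markers, Pdgfra was itself called higher and Dpt was not.

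**Figure D4:**
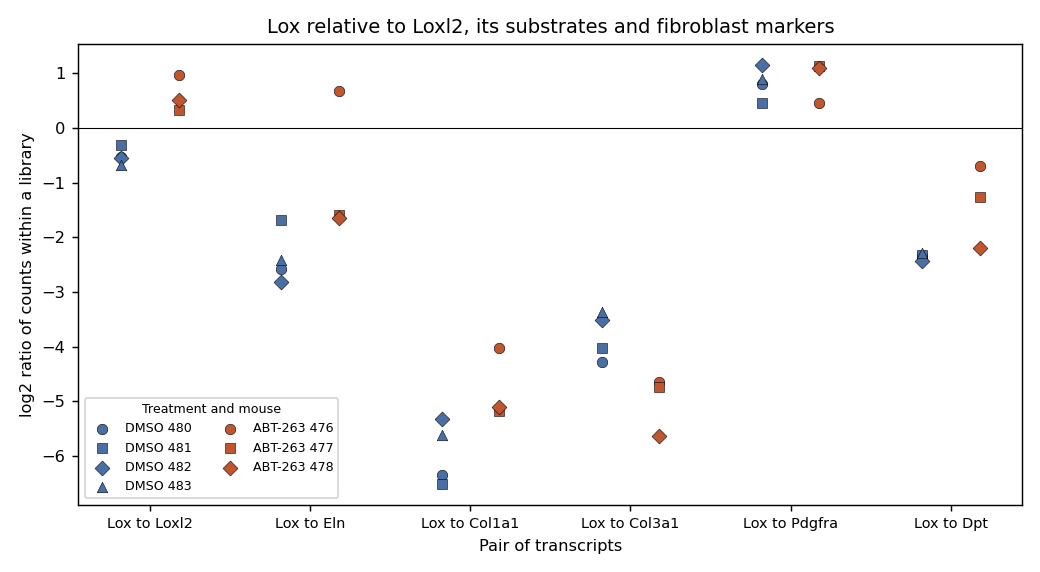
Log2 ratio of Lox counts to the counts of another transcript within each library, for Loxl2, 3 substrate genes and 2 fibroblast markers, with blue symbols for DMSO-treated and orange symbols for ABT-263-treated mice. The groups are apart, with ABT-263 higher, for Loxl2 and narrowly for Eln, Col1a1 and Dpt. They are apart in the other direction for Col3a1, and overlap for Pdgfra.

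Around the lysyl oxidases, 8 lists of substrates, partners and inducing pathways were examined, which hold 82 genes, 79 of them tested. Of these, 30 (38.0%) were called higher and 3 (3.80%) lower by edgeR at the same threshold, where the background was 12.4% higher and 11.7% lower. The lists were chosen with earlier results of these data known, so these counts are descriptions without a test. The median log2FC of the 79 genes was 0.74. Without mouse 482 the number called higher was 12, without mouse 478 and without mouse 483 it was 17, without mouse 476 it was 18 and without mouse 481 it was 19. In the same order, 10.3%, 9.39%, 11.7%, 12% and 16.1% of all genes were called in either direction, against 24.2% with all mice. That share was 23.5% without mouse 480, 21.6% without mouse 477 and 17% by DESeq2. The number of listed genes called lower was 1 without mouse 476 and without mouse 483. Without mouse 478 or mouse 482, the genes called higher numbered 3 of the elastic fibre list, 4 of the collagen list, 2 of the hydroxylation list, 2 of the precursor processing list and 0 of the copper list.

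Of the 17 genes of elastin, microfibrils and elastic fibre assembly, 6 rose and none fell, with a median log2FC of 0.56. Eln itself was at 199, 68.3, 302 and 246 CPM in control mice 480 to 483 and at 91.8, 240.3 and 342 CPM in treated mice 476 to 478. The groups overlapped throughout, and the log2FC of 0.14 (SE 0.55, edgeR adjusted p = 0.873) did not pass. Fbln5 and Efemp2 encode fibulin-5 and fibulin-4, the proteins that bring LOXL1 and LOX to elastin. Fbln5 rose from 22.6 ± 4.57 to 56.5 ± 8.64 CPM (SD, n = 4 and 3), with log2FC 1.32 (SE 0.18, edgeR adjusted p = 0.00628), and passed with each mouse left out. Efemp2 rose from 47.8 ± 16.7 to 96.7 ± 23.7 CPM (log2FC 1.02, edgeR adjusted p = 0.0463) and passed in 2 of the 7 fits with a mouse left out. Fbln2 (2.02), Emilin1 (1.79), Fbn1 (1.32) and Emilin2 (1.18) were the others that rose, of which Fbln2 and Emilin1 passed with each mouse left out and Fbn1, the main microfibril protein fibrillin-1, in 1 and Emilin2 in 3 of 7. Among the microfibril-associated genes Mfap2, Mfap4 and Mfap5 had log2FC values of 0.24, 0.56 and 0.19, not past the threshold in any case, and Fbn2 had log2FC -0.81 (edgeR adjusted p = 0.0933). Without mouse 477, 1 gene of this list was called lower.

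Of the 13 collagen genes listed as substrates, 12 were tested, 7 rose and 1 fell, with a median log2FC of 1.19. Col3a1 (2.93), Col5a2 (2.48), Col5a3 (1.19) and Col1a2 (0.83) rose among the fibrillar chains, as did Col5a1, from 97.8 ± 29.5 to 225 ± 60.8 CPM. Col4a1 (1.70) and Col4a2 (1.66), the common chains of basement membrane collagen IV, rose and passed with each mouse left out, as did Col3a1 and Col5a2, whereas Col5a1 passed in 5, Col5a3 in 4 and Col1a2 in 2 of 7 fits. The gene that fell was Col27a1, from 21.3 ± 5.92 to 8.56 ± 0.92 CPM, with log2FC -1.31 (edgeR adjusted p = 0.00972), and it passed whichever mouse was left out. Col1a1 had log2FC 0.47 (edgeR adjusted p = 0.196), and Col2a1, the cartilage collagen, was too low to be tested.

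Lysyl hydroxylases decide which cross-links form, because hydroxylated lysines give more stable products. Of 10 genes for lysyl hydroxylation and its partners, 4 rose and none fell, with a median log2FC of 0.46. Plod1, which hydroxylates lysines of the triple helix, rose from 50.4 ± 11.7 to 84.0 ± 18.8 CPM (log2FC 0.74, edgeR adjusted p = 0.0423) and passed in 2 of 7 fits with a mouse left out. Plod2, the telopeptide hydroxylase, was low at 2.83 ± 0.98 CPM after DMSO and 3.65 ± 1.82 CPM after ABT-263 and did not pass (log2FC 0.36, edgeR adjusted p = 0.529). P3h3 (1.27), a partner of lysyl hydroxylase 1, and Serpinh1 (1.06), the collagen chaperone HSP47, rose and passed with each mouse left out. Colgalt1 (0.48), which adds galactose to hydroxylysine, rose in the fit of all mice and passed in 2 of 7.

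Among 10 genes for the processing of lysyl oxidase precursors and the scaffolds of that reaction, 9 were tested, of which 5 rose and 2 fell. Bmp1, the protease that releases active LOX, was at 87.9, 63.5, 66.0 and 66.4 CPM in control mice 480 to 483 and at 186.7, 129.5 and 133.5 CPM in treated mice 476 to 478. All treated mice lay above all controls, and Bmp1 rose by 1.08 on the log2 scale (SE 0.18, edgeR adjusted p = 0.00887), passing with each mouse left out. Its relative Tll1 was far lower, at 0.41 ± 0.19 CPM after DMSO and 3.86 ± 1.97 CPM after ABT-263, with log2FC 3.25 (SE 0.51, edgeR adjusted p = 0.00761), and also passed with each mouse left out. Postn and Fn1 encode periostin and fibronectin, matrix proteins that assist the activation of LOX, and rose by 1.56 (edgeR adjusted p = 0.0268) and 1.13 (adjusted p = 0.0452). Postn passed in 2 and Fn1 in 1 of the 7 fits with a mouse left out. The procollagen C-proteinase enhancers moved in opposite directions, with log2FC 0.77 for Pcolce (edgeR adjusted p = 0.0246) and -1.07 for Pcolce2 (adjusted p = 0.0239), each passing in 3 of the 7 fits with a mouse left out. Adamts14, a procollagen N-proteinase that can also cut LOX, went from 18.9 ± 6.51 to 8.84 ± 1.42 CPM, with log2FC -1.09 (edgeR adjusted p = 0.0288), and passed in 2 of 7 such fits. Its relative Adamts2 had log2FC 0.34 (edgeR adjusted p = 0.329).

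Of the 4 copper genes, both plasma membrane and endosomal transporters rose, Slc31a1 (CTR1) by 0.52 (edgeR adjusted p = 0.0470) and Slc31a2 (CTR2) by 0.76 (adjusted p = 0.0201) on the log2 scale. Slc31a1 passed in 1 and Slc31a2 in 3 of the 7 fits with a mouse left out. Atp7a, the pump that loads copper into lysyl oxidases in the secretory pathway, was at 1.06 ± 0.26 CPM after DMSO and 2.20 ± 1.07 CPM after ABT-263, and its log2FC of 1.05 did not pass (edgeR adjusted p = 0.105). Atox1, the chaperone that hands copper to this pump, went the other way, with log2FC -0.61 (edgeR adjusted p = 0.0858).

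Of 7 genes of other cross-linking enzymes, 6 were tested and 1 rose. Tgm2, the tissue transglutaminase, was at 83.5 to 131 CPM in the controls and at 429, 115.5 and 266 CPM in treated mice 476, 477 and 478 (log2FC 1.44, edgeR adjusted p = 0.0349). The groups overlapped, and Tgm2 passed in 1 of 7 fits with a mouse left out. Aoc3, a copper amine oxidase of endothelium and fat, had log2FC 1.11 (edgeR adjusted p = 0.106).

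Lox is a known target of hypoxia-inducible factor and of TGF-beta. Of 12 hypoxia response genes, 3 rose, with a median log2FC of 0.70. These were Adm (2.34), Vegfa (1.34) and Ndrg1 (1.14), of which Adm passed with each mouse left out, Vegfa in 6 and Ndrg1 in 3 of 7 fits. The DESeq2 Wald test called 6 of the 12 higher, and edgeR called 5 without mouse 480, 2 without mouse 476, 481 or 483 and 1 without mouse 482. The glycolytic members Pgk1 (0.32) and Ldha (-0.07) did not pass. Of 10 genes of TGF-beta ligands and responses, 2 rose, Tnc (3.08, edgeR adjusted p = 0.0440) and Skil (1.00, adjusted p = 0.0271). Tnc reached 1124 CPM in mouse 476 against 188 and 165 CPM in mice 477 and 478, and passed in 1 of 7 fits with a mouse left out, and Skil passed in 3. The DESeq2 Wald test called 4 of the 10 higher, whereas edgeR called 1 without mouse 477, 480 or 483 and 0 without mouse 476, 481 or 482, against 5 at an unadjusted p under 0.05 with all mice. Tgfb1 (0.44), Tgfb2 (-0.42) and Tgfb3 (-0.09) and the response gene Ccn2 (-0.02) did not pass.

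**Figure D5:**
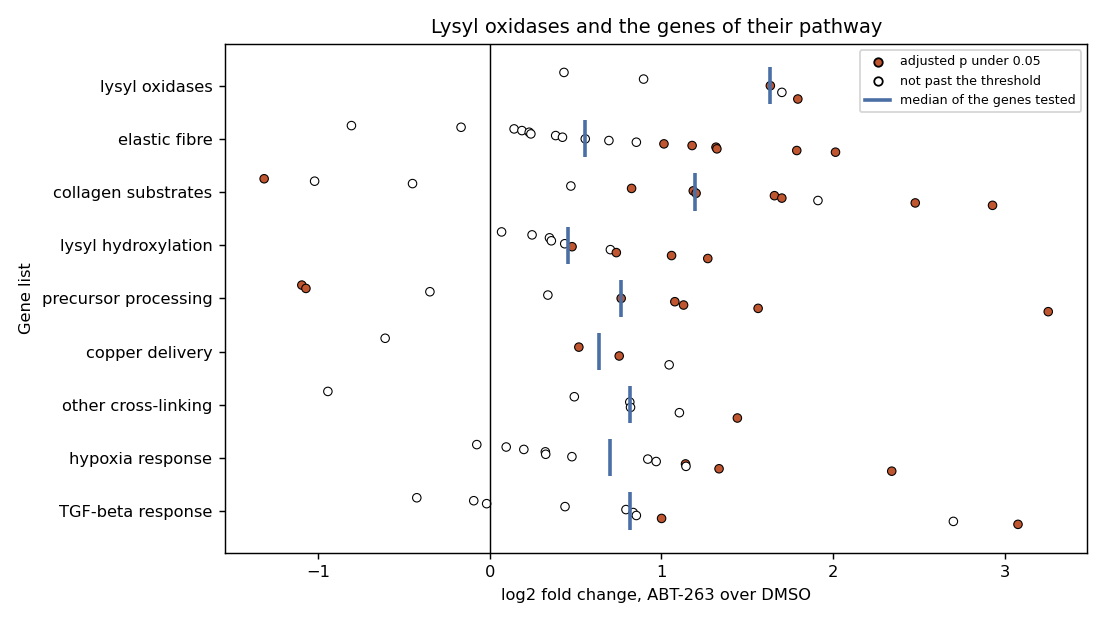
Log2FC (ABT-263 over DMSO) of the lysyl oxidases and of 8 lists of genes around them, 1 point per gene tested, filled where the adjusted p from edgeR is under 0.05, with a blue bar at each list's median. The medians lie between 0.46 and 1.64, and 3 listed genes are filled on the lower side.

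Markers of other cell types moved with the treatment too. Over all genes tested with all mice, 12.4% were called higher and 11.7% lower. In either direction the share was 24.2%, and 9.39% without mouse 478, 10.3% without mouse 482 and 11.7% without mouse 483. It was 12% without mouse 476, 16.1% without mouse 481, 21.6% without mouse 477 and 23.5% without mouse 480. With every gene with a count tested the share was 11.1%, and by DESeq2 17%. Of 7 fibroblast markers, 2 were higher (Pdgfra and Lum) and none lower, and their summed level was 944 to 1478 CPM after DMSO and 1435 to 2264 CPM after ABT-263. By edgeR with all mice, 6 of 7 endothelial markers were higher, with sums of 215 to 463 CPM after DMSO and 626 to 766 CPM after ABT-263, but 3 without mouse 478 or mouse 482. For macrophages, 6 of 7 markers were higher, with sums of 304 to 889 and 981 to 3163 CPM. That count was 1 without mouse 483, 3 without mouse 476 or mouse 478, 4 without mouse 480, 481 or 482, and 2 with every gene with a count tested. Of 7 neutrophil markers 5 were tested and 3 were higher, with sums of 99.9 to 1820.5 and 5097 to 8318 CPM. The neutrophil count was 1 without mouse 476, 482 or 483, 2 without mouse 478 or mouse 480, and 0 with every gene with a count tested. Of 7 skeletal muscle markers 2 were lower and none higher, and 1 was lower without mouse 476, 477, 478, 481, 482 or 483 in turn. None of the 7 smooth muscle and pericyte markers was called by edgeR or DESeq2, although 2 had an unadjusted p under 0.05 in edgeR and 1 was called higher without mouse 477, and their sums overlapped, at 3790.5 to 7075 and 3664 to 6621 CPM. These sums describe mainly 1 gene of the list, Des, which was at 3441 to 6631 CPM after DMSO and 3251 to 6164 CPM after ABT-263. No adipocyte marker of 7 was called by edgeR, where 3 had an unadjusted p under 0.05, and 1 was called higher by DESeq2, with sums of 631 to 1642 and 768 to 2047 CPM. Of the 8 hair follicle markers tested, edgeR called 0 and 1 had an unadjusted p under 0.05, and DESeq2 called 1 lower. Their median log2FC was -2.01 with all mice and 3.46 without mouse 481, where 1 was called higher. Of the 7 keratinocyte and 7 T cell markers, 0 were called by edgeR or DESeq2 and 0 had an unadjusted p under 0.05 in edgeR, with T cell sums of 23.1 to 46.8 and 19.9 to 54.3 CPM. No marker was at 0 in every library. The part of these cell types in the levels of the lysyl oxidases was not tested.

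The genes most like each member were those with the highest Pearson correlation of log2(CPM + 1) over the 7 mice among 11446 protein-coding genes with a mean of at least 5 CPM (11447 for Loxl4). Correlations are given as descriptions only, since the mice fall into 2 groups and the genes were chosen for these values. For Lox these were D11Wsu47e (r = 0.996), Mcfd2 (0.992) and Dse (0.992), of which Dse encodes dermatan sulfate epimerase and itself had log2FC 1.27. For Loxl1 they were Trem2 (0.995), a receptor of macrophages, Slc9a9 (0.995) and Por (0.990). Loxl2 had the least close partners, Snapc5 (0.987), Fcna (0.972) and Prrx2 (0.959), the last a homeobox gene of mesenchyme. For Loxl3 they were Idua (0.993), Fbxo4 (0.990) and Rbms2 (0.990). For Loxl4 they were Gbp9 (0.996), an interferon-inducible GTPase gene, Ltbr (0.994) and Lgals3bp (0.994). No gene was named for more than 1 member.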

How the data were processed

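Skin from 7 mice was analysed, 4 after DMSO and 3 after ABT-263, grouped by the sample titles. Per the labels and the study's methods, the authors aligned reads to mm10 with STAR 2.7.9a and made gene counts with featureCounts (Subread 1.6.2) from properly paired reads that aligned once and matched the gene's strand. Mitochondrial genes were not counted. Counts are as deposited, without scaling. A second deposited table holds variance-stabilized log2-like values that the authors made with DESeq2 1.23.10, used here only as an alternative.

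Symbols, positions and lengths came from GENCODE M21 on GRCm38, which holds 55190 of the 55450 identifiers and is not the Ensembl release the authors name. The main test was edgeR 4.0.16 (TMM, filterByExpr, robust quasi-likelihood) in R 4.3.3, two-sided, with Benjamini-Hochberg adjustment over 17959 genes. The standard error is the log2 fold change divided by the square root of F. Ratios within a library used counts plus 0.5 and an exact permutation test over 35 assignments. The script was tested on simulated data.

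The members and lists were chosen with earlier results of these data known. Named are the members, the genes of 8 lists and, per member, the 3 genes most like it. Alternatives were the DESeq2 1.42.0 Wald test, its size factors, other filters on low counts, protein-coding genes only, removal of length and GC trends (mgcv 1.9.3), thinned counts, limma 3.58.1 on the variance-stabilized values, and leaving out each mouse. That each sample is a separate mouse is taken from its number in the title. Protein and promoter sequences were not used here.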

Additional observations from a re-analysis of the deposited data

Results flagged for a closer look

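For 34 measures, Dixon's ratio was computed over the 4 controls to find 1 mouse lying apart. At its 5% level chance gives about 1.70 such measures, and 3 exceeded the limit. The log2 ratio of Loxl1 to Loxl2 was 0.97 in mouse 480 and between 0.23 and 0.35 in the other controls (ratio 0.830). The summed level of the other cross-linking enzymes was 483 CPM in mouse 480 and 211 to 255 CPM in the others (ratio 0.837). The summed level of the hair follicle markers was 2811 CPM in mouse 481 and 24.5 to 27.4 CPM in the others (ratio 0.999).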

How the results depend on the processing

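No paired analysis was possible because the mice of the 2 groups share no numbers. The direction of all 5 members was positive under every alternative. Lox kept its call in all 15, with log2 fold changes from 1.40 to 1.86, and Loxl1 and Loxl2 passed in none. Loxl3 passed under the DESeq2 Wald test (1.73), with at least 10 counts in every library (1.71) and without mouse 477, and ranged from 0.97 to 2.13 with a mouse left out. Under each of the settings in which Loxl3 passed, 3 members were called. Loxl4 ranged from 1.45 to 2.09 with a mouse left out and lost its call in 4 of 7 fits. The number of members called then ran from 1 to 3, the listed genes called higher from 12 to 30 and those called lower from 1 to 4. Among ratios, leaving out a mouse gave 0.94 to 1.26 for Lox to Loxl2 and -0.96 to -0.51 for Loxl1 to Loxl4, where 3 or 2 mice in a group cannot give p under 0.05. Lox to Loxl3 turned to -0.21 without mouse 477 (highest 0.47) and Lox to Loxl4 to 0.018 without mouse 483 (lowest -0.34). Over all genes, 4342 were called, 5210 by DESeq2 over 30645 genes, 1735 without mouse 478, 1824 without mouse 482, 2063 without mouse 483, 2228 without mouse 476 and 2837 without mouse 481. The cause of these changes was not tested. Loxl4 had the lowest counts of the family, and it kept its call with counts thinned to the smallest library (log2FC 1.69, edgeR adjusted p = 0.0244).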
